A study of Mus musculus with 76 samples.

Results

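The genes described are 9 heat shock proteins and cochaperones, Hspa1a, Hspa1b, Hsph1, Dnajb1, Dnaja1, Hspa8, Hsp90aa1, Hspb1 and Cacybp, in lung tissue of mice with and without Noxo1, which encodes a protein that assembles the superoxide-making enzyme NOX1. The members were found by symbol among 20710 genes measured on all 76 arrays, and for a gene with several probes the one with the highest mean over these arrays was used. Probes were found for 8 of the 9 genes, and Hspa1b was not analysed here because no probe carried its symbol or accession. The 9 genes were picked for how smoke changed them in the 2 genotypes, so every smoke value and count below is a description of that choice, and nothing is read from its tests.

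Heat shock proteins are chaperones that bind unfolded or newly made proteins and keep them from clumping. HSP70 proteins such as the products of Hspa1a, Hspa1b and Hspa8 bind and release client proteins with the hydrolysis of ATP, J-domain proteins such as those of Dnajb1 and Dnaja1 bring clients and start the hydrolysis, and nucleotide exchange factors such as that of Hsph1 let the client go. HSP90 proteins take over partly folded clients, and small heat shock proteins such as that of Hspb1 hold unfolded ones without ATP. Under heat, oxidants or other damage to proteins, the factor HSF1 binds heat shock elements, inverted repeats of a short GAA block, and switches on many of these genes together.

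The promoters of Hspa1a and Hspa1b are shown because these neighbouring genes for inducible HSP70 are almost alike, and because the probe named for Hspa1a is the member with the widest swings. The sequences are from RefSeq on build GRCm38.p6, the 250 bases before the start of each gene on the minus strand of chromosome 17, at chr17:34972157-34972406 for Hspa1a and chr17:34959239-34959488 for Hspa1b. Capitals mark a match to the letters GAANNTTC, which read the same on both strands and hold a pair of inverted GAA blocks.
Hspa1a: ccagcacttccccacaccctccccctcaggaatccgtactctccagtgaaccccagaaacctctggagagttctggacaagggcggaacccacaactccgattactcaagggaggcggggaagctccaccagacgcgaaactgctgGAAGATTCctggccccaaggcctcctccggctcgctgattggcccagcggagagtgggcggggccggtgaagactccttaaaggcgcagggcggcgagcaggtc
Hspa1b: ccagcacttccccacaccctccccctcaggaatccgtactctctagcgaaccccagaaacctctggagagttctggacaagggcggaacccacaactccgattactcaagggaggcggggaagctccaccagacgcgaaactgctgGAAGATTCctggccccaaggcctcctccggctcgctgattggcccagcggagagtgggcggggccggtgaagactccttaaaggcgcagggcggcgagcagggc
Over the 300 bases from 250 before to 50 after the start, 296 positions were equal. Whether the Hspa1a probe also binds Hspa1b transcripts was not tested, so its values may hold signal of both genes.

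Windows of the same length were found for 7 of the 9 genes and were searched for GAANNTTC and its inverse arrangement TTCNNGAA. Matches were found in 5 of these 7 genes (Hspa1a, Hspa1b, Hsph1, Dnaja1 and Hspb1), where 17.0% of all genes with a window had one, and in 6 of their 11 windows, where 15.1% of all 32851 windows did. The windows of Hsph1 overlap and hold the same matches, and those of Hspa1a and Hspa1b are almost alike and hold the same match. The counts of genes and windows are thus not of separate sequences. Dnaja1 has 3 windows, for different starts, and held a match in 1 of them, while no window of Dnajb1 or Cacybp held these letters. The stretches below, 30 bases each and read 5′ to 3′ on the gene's strand, show the matches of the members other than Hspa1a and Hspa1b in capitals. Those of Hsph1 lie at chr5:149636351-149636380 and chr5:149636282-149636311, that of Dnaja1 at chr4:40722333-40722362 and those of Hspb1 at chr5:135887791-135887820 and chr5:135887811-135887840.
Hsph1, before the start: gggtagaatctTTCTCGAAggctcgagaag
Hsph1, after the start: aatgctgcagaTTCTGGAAAGTTCtcctca
Dnaja1: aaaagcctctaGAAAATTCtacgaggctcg
Hspb1, far match: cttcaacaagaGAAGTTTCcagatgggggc
Hspb1, near match: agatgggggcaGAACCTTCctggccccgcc
The second stretch of Hsph1 holds 3 blocks in a row, in which the overlapping matches TTCTGGAA and GAAAGTTC join, and such a triple was found in 0.603% of all windows. A match is a run of letters and no evidence of binding, and inexact blocks were not searched for.

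RNA came from alveolar septa and from vessels cut out of the lungs of 40 mice, which gave 39 septa arrays and 37 vessel arrays. Knockout and wild-type mice (strain given as C57BL/6-Noxo1(tm1881_17.2Arte), 5 to a cage) were exposed from week 12 to smoke of 3R4F research cigarettes or served as controls, and both were sampled at 3 or 8 months. The air held 140 mg/m3 of smoke particles during 6 daily hours, and weeks had 5 exposure days. No label states what the controls breathed. The 16 groups held 4 or 5 arrays each, namely smoke-exposed and control knockout mice and smoke-exposed and control wild-type mice at each time in each tissue. Nothing in the labels says that the mice of a group were exposed separately, and the protocol speaks of 8 months while sample names also give 3 months.

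Arrays of a tissue were alike, with a median correlation to the others of 0.80 to 0.88 in vessels and 0.90 to 0.93 in septa. All 13 smooth muscle markers were higher in vessels, where their mean log2 signal was 9.54 to 11.44 against 5.60 to 7.14 in septa, and all 10 markers of type 1 pneumocytes were lower. Noxo1 averaged 2.42 ± 0.67 in knockout and 3.72 ± 1.27 in wild-type septa (SD, n = 20 and 19), and 3.20 ± 1.25 in knockout and 4.05 ± 1.54 in wild-type vessels (SD, n = 18 each). These levels overlapped and were near the signal of odorant, vomeronasal and trace amine receptor genes, of whose single values 95% were at or below 4.0. Where the Noxo1 probe lies relative to the deleted part is not given, so these levels do not check the genotype labels. The highest Noxo1 signal of all 76 arrays, 7.03, was on a vessel array labelled knockout, that of control mouse 7 at 8 months, and the next knockout vessel array read 4.57. A female pattern of Xist and Y-linked genes was seen in 9 of 18 smoke-exposed and 3 of 19 control vessel arrays, and in 10 of 20 smoke-exposed and 4 of 19 control septa arrays. In mice 7 and 29, of 35 mice with both tissues, the pattern differed between the tissues, and the count of members called in each contrast was the same without them. The array with the highest Noxo1 is the vessel array of mouse 7. Both arrays labelled mouse 25, wild-type control vessels at 3 months, were averaged in all comparisons within vessels, leaving 36 vessel replicates, and both were kept in the comparison of tissues.

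At 3 months the members were lower in smoke-exposed than in control knockout vessels and higher in smoke-exposed than in control wild-type vessels, 8 of 8 in each case, where 51% of all genes were lower and 49.3% higher. In septa at 3 months 8 of 8 were lower in smoke-exposed knockout mice and 7 of 8 were higher in smoke-exposed wild-type mice, Cacybp being the exception, where 52.8% of all genes were lower and 47.8% higher. This opposite pattern, below 0 in knockout and above 0 in wild-type mice, was met by 25.3% of all genes in vessels and 23.2% in septa, and it is the pattern for which the members were chosen. None of the 8 passed limma's adjusted p of 0.05 in any of these 4 contrasts. Among all genes 0% passed in each, except 0.00483% in wild-type septa. At an unadjusted p under 0.05 there were 3 members in knockout vessels, 4 in wild-type vessels, 1 in knockout septa and 3 in wild-type septa, beside 6.2%, 6.12%, 3.54% and 5.09% of all genes in the same order. These counts follow from how the members were chosen.

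Hspa1a, the stress-inducible HSP70, moved most in knockout vessels. Its log2 signal was 7.93, 8.19, 5.29, 5.03 and 2.83 in smoke-exposed knockout vessels at 3 months, against 10.52, 7.95, 8.14 and 10.91 in control knockout vessels. Of the 5 smoke-exposed arrays 4 lay below every control array, and the groups overlapped through 1 array. In wild-type vessels it was 9.30, 9.72, 10.99, 10.49 and 8.73 with smoke, against 7.66, 7.62, 6.17 and 8.56 in controls, so all smoke-exposed arrays lay above all controls. The smoke difference was -3.52 ± 1.01 in knockout and 2.34 ± 1.01 in wild-type vessels (log2, SE). The lowest knockout value, 2.83, is within the range of signals of the receptor genes.

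In septa at 3 months Hspa1a read 7.54, 9.61, 6.20, 8.57 and 3.47 in smoke-exposed and 8.85, 5.84, 11.44, 9.53 and 5.43 in control knockout mice. It read 8.36, 9.44, 11.29, 10.61 and 11.51 in smoke-exposed and 7.18, 7.03, 8.36 and 10.04 in control wild-type mice. Both pairs of groups overlapped. The differences were -1.14 ± 1.04 and 2.09 ± 1.11 (log2, SE), the first close to its SE.

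Hsph1, the HSP110 exchange factor that works with HSP70, had the same signs of the smoke difference. In vessels at 3 months it read 7.98, 10.84, 10.00, 8.24 and 7.95 in smoke-exposed knockout mice, against 11.23, 10.75, 10.50 and 11.20 in control knockout mice. It read 10.26, 10.10, 10.73, 10.41 and 10.89 in smoke-exposed wild-type mice, against 10.07, 10.00, 7.36 and 8.83 in control wild-type mice. The wild-type groups did not overlap, while 1 knockout array with smoke reached the range of its controls. The differences were -1.92 ± 0.63 in knockout and 1.41 ± 0.63 in wild-type vessels, and the wild-type value was 0.64 with the mean of both Hsph1 probes and 0.84 without control mouse 22, which read 7.36. In septa the difference was -0.10 ± 0.45 in knockout mice, where its sign turned under 6 of 50 settings (0.01 with the sex pattern as a covariate, 0.09 with array weights, and the rest with 1 array left out), and 1.44 ± 0.48 in wild-type mice, or 0.92 without mouse 22.

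The J-domain proteins pass clients to HSP70, Dnajb1 being the stress-inducible one and Dnaja1 a more constant one. In vessels at 3 months Dnaja1 read 8.35, 10.34, 9.39, 9.78 and 8.34 in smoke-exposed and 10.53, 10.09, 10.53 and 10.13 in control knockout mice, and 9.44, 10.17, 10.79, 10.35 and 10.13 in smoke-exposed and 10.44, 9.70, 8.57 and 9.09 in control wild-type mice. All but 1 knockout array with smoke lay below the knockout controls, and the wild-type groups overlapped. Dnaja1 in septa at 3 months read 9.80, 11.04, 9.86, 9.68 and 9.45 in smoke-exposed knockout mice and 10.70, 10.15, 10.94, 10.90 and 10.23 in control knockout mice, so 4 of 5 arrays with smoke lay below all controls and 1 above them. In wild-type septa it read 10.94, 10.66, 11.46, 11.43 and 11.29 with smoke and 10.21, 10.00, 10.48 and 10.07 in controls, with no overlap. The smoke differences of Dnaja1 were -0.62 ± 0.26 and 0.96 ± 0.27 in septa and -1.08 ± 0.47 and 0.73 ± 0.47 in vessels (knockout and wild-type mice, log2, SE). Without mouse 22 the wild-type vessel value of Dnaja1 was 0.43.

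Dnajb1 in wild-type septa at 3 months read 12.04, 11.81, 12.80, 12.62 and 12.69 with smoke and 11.17, 11.41, 11.76 and 11.80 in controls, again with no overlap. In knockout septa it read 10.36, 11.57, 10.88, 11.20 and 10.25 with smoke and 10.90, 11.41, 12.54, 10.88 and 10.65 in controls, which overlapped. The differences were -0.42 ± 0.33 and 0.86 ± 0.35 in septa and -0.90 ± 0.64 and 1.09 ± 0.64 in vessels (knockout and wild-type mice, log2, SE). Leaving out 1 array changed Dnajb1 to -0.11 in knockout septa without control mouse 3 and to 0.42 in wild-type vessels without mouse 22. Smoke-exposed arrays lay above all controls for Hspa1a and Hsph1 in wild-type vessels, where 0.71% of all genes did, and for Dnajb1 and Dnaja1 in wild-type septa, where 0.739% did. These counts are of members chosen on the same contrasts.

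**Figure D1:**
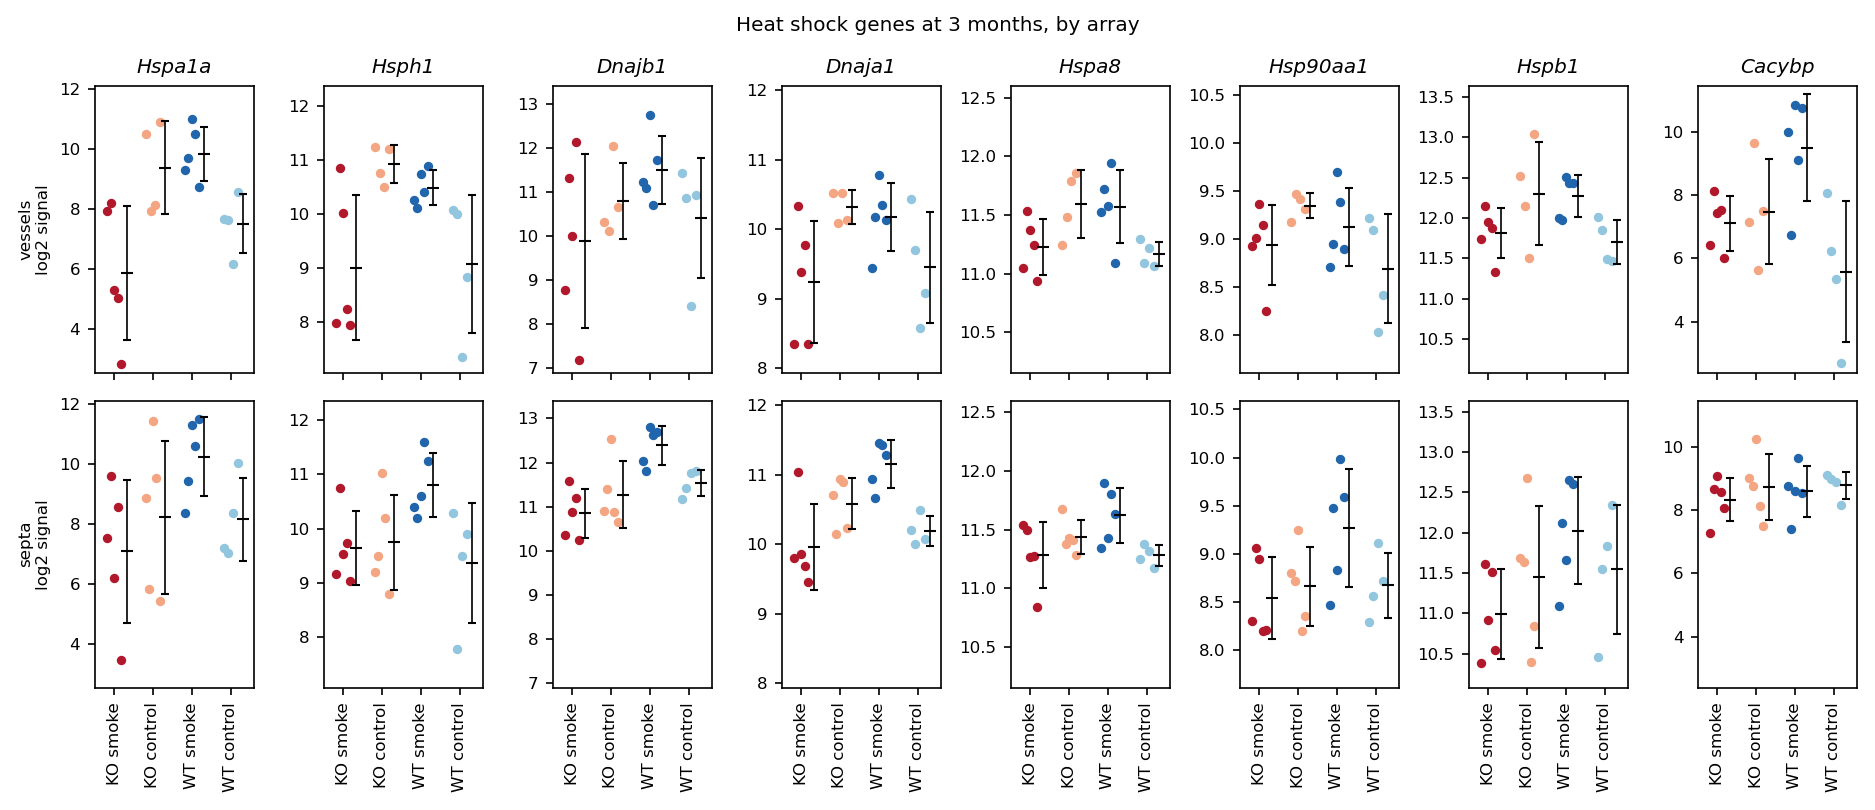
Log2 signal of the 8 measured members on each array at 3 months, vessels in the upper and septa in the lower row, with knockout smoke, knockout control, wild-type smoke and wild-type control from left to right in each panel and the mean ± SD as a black bar. In vessels Hspa1a of smoke-exposed knockout mice reaches down to 2.83, while in wild-type vessels all smoke-exposed arrays lie above the control arrays.

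Cacybp encodes calcyclin-binding protein, which links S100 proteins to ubiquitin ligases and is related to an HSP90 cochaperone. It had the largest smoke difference of the members in wild-type vessels at 3 months, 3.91 ± 0.86 (log2, SE). Its signal was 10.01, 6.75, 10.85, 9.10 and 10.76 with smoke, against 8.06, 6.24, 5.34 and 2.69 in controls. These groups overlapped, and the control value 6.24 is the mean of mouse 25, whose 2 arrays read 8.46 and 4.03. In knockout vessels it read 6.43, 8.15, 7.44, 7.52 and 6.00 with smoke and 7.17, 9.65, 5.63 and 7.49 in controls, a difference of -0.38 ± 0.86 that was 0.35 without the control array at 9.65. In septa Cacybp differed by -0.40 ± 0.47 in knockout and -0.19 ± 0.50 in wild-type mice, both within their SE. The wild-type value was 0.11 without smoke-exposed mouse 32, so the sign of this exception rested on 1 array.

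The vessel differences of Hspa8, Hsp90aa1 and Hspb1 were smaller than those of Hspa1a and Hsph1. Hspa8, the constitutive HSP70, differed by -0.37 ± 0.22 in knockout and 0.40 ± 0.22 in wild-type vessels, and by -0.15 ± 0.17 and 0.34 ± 0.19 in septa (log2, SE). Hsp90aa1, the inducible HSP90, differed by -0.41 ± 0.33 in knockout and 0.43 ± 0.33 in wild-type vessels. Hspb1, the small heat shock protein HSP25, differed by -0.49 ± 0.25 in knockout and 0.57 ± 0.25 in wild-type vessels. In septa Hsp90aa1 differed by -0.12 ± 0.30 in knockout and 0.60 ± 0.32 in wild-type mice, and Hspb1 by -0.46 ± 0.34 and 0.48 ± 0.36. In size both exceeded Cacybp in wild-type septa, and Hspb1 exceeded Hsph1, Dnajb1 and Cacybp in knockout septa. Whether the differences of 2 members differ was not tested. Without wild-type control mouse 21 the septa value of Hspb1 was 0.12. That of Hsp90aa1 in knockout septa turned to 0.02 without control mouse 3.

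Single mice carried part of these values. In mouse 15, a smoke-exposed knockout mouse, all 8 members had their lowest value of the group in vessels and 5 of 8 did in septa, while in mouse 12 of the same groups 6 of 8 had their highest value in each tissue. Without the array of mouse 15 the smoke difference of Hspa1a in knockout vessels was -2.77, that of Hsph1 -1.65 and that of Dnajb1 -0.23. In septa without mouse 15 that of Hspa1a was -0.24 and that of Hsph1 0.05. Control mouse 3 had the highest value of the knockout control septa in 7 of 8 members, and without it Hspa1a differed there by -0.34. Control mouse 22 had the lowest value of the wild-type control vessels in 5 of 8 members. At 3 months 3 of 5 smoke-exposed knockout vessel arrays and 1 of 4 control ones had the female pattern, against 0 of 5 and 1 of 5 in wild-type vessels, and with that pattern as a covariate Hspa1a differed by -3.45 and 2.29. The immediate early genes, 23 of 24 listed ones measured, had a mean log2 signal of 7.51 to 9.81 in smoke-exposed and 8.12 to 9.88 in control knockout vessels, and of 9.06 to 9.71 and 8.30 to 10.18 in wild-type vessels. Of these 23 genes 20 were lower with smoke in knockout vessels (median -0.57) and 18 were higher in wild-type vessels (median 0.25). In group means most thus had the directions of the members. Within groups no correlation of a member with the mean of these genes passed adjustment. The mean of 10 heart muscle markers was 3.75 to 11.10 in smoke-exposed and 4.24 to 4.85 in control knockout vessels, and 4.25 to 10.54 and 4.26 to 12.10 in wild-type vessels, with 9 of 10 higher in knockout (median 2.45) and 9 of 10 lower in wild-type mice (median -0.68). The part of both lists in the result was not tested.

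**Figure D2:**
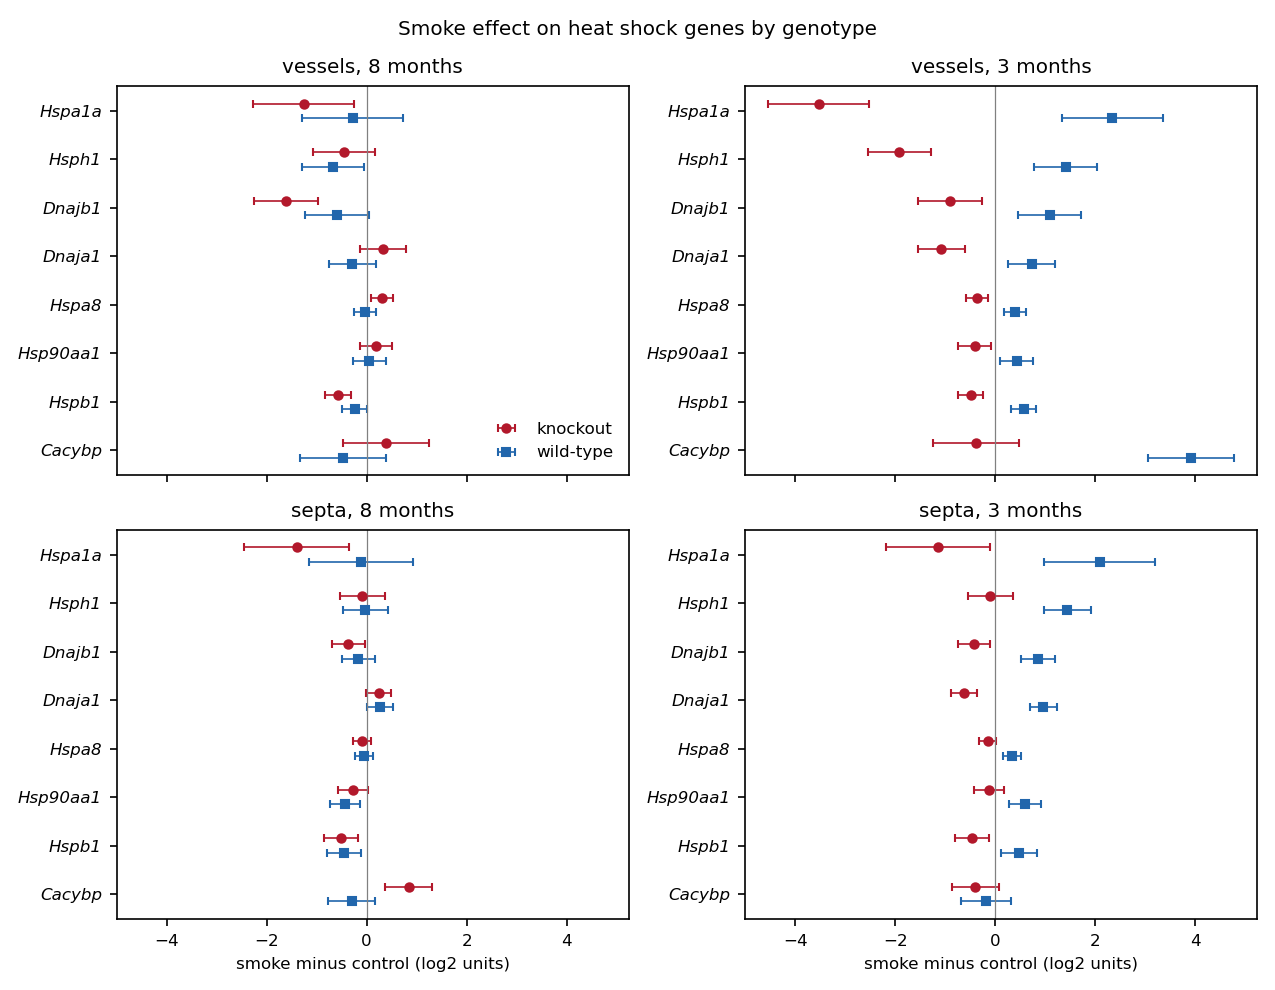
Smoke minus control for each member (log2 units, point ± SE) in knockout (red circles) and wild-type mice (blue squares), vessels above and septa below, 8 months left and 3 months right. At 3 months the knockout points lie left and the wild-type points right of 0, except Cacybp in septa, and at 8 months they mix.

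At 8 months no member was below 0 in knockout and above 0 in wild-type mice in either tissue, where 23.5% of all genes in vessels and 22.4% in septa were. Without mice 7 and 29, Hspa1a in septa did so, at -1.78 in knockout and 0.35 in wild-type mice. In vessels 4 of 8 were below 0 in knockout and 1 of 8 above 0 in wild-type mice, beside 48.9% and 49.5% of all genes, and in septa these were 6 and 1, beside 53.2% and 46.2%. Again 0 of 8 passed limma's adjusted p in the 4 contrasts, 0% of all genes did, and at an unadjusted p under 0.05 there were 2 members in knockout vessels and 0 elsewhere, beside 4.3% of all genes in knockout and 2.94% in wild-type vessels and 6.55% in knockout and 5.79% in wild-type septa. Dnajb1 in knockout vessels was the member furthest from 0, at 9.49, 10.08, 9.12 and 9.65 with smoke, against 11.52, 11.99, 9.91, 11.21 and 11.33 in controls. All but 1 control array lay above the smoke-exposed arrays, and the difference was -1.61 ± 0.64 (log2, SE). The female pattern was seen in 3 of these 4 smoke-exposed and 1 of the 5 control arrays, and with it as a covariate the difference was -1.26. In wild-type vessels Dnajb1 differed by -0.60 ± 0.64. Hspa1a, with -1.26 ± 1.01 and -1.40 ± 1.04 in knockout vessels and septa, differed by -0.28 ± 1.01 and -0.12 ± 1.04 in wild-type vessels and septa. Whether the smoke effect itself differed between 3 and 8 months was not tested.

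**Figure D3:**
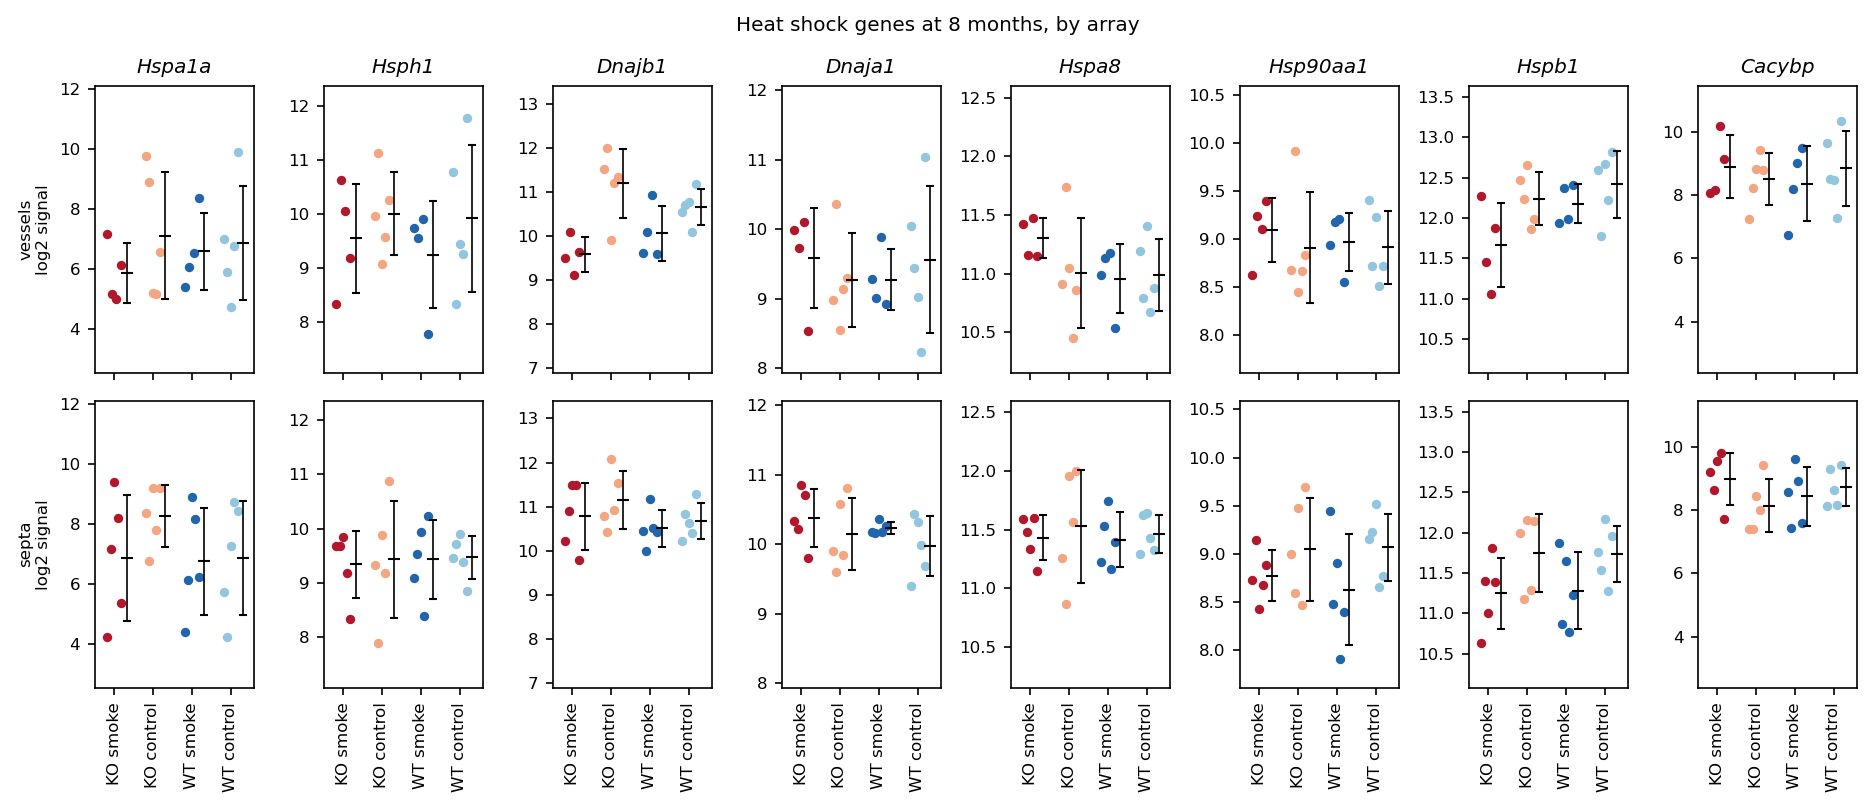
Log2 signal of the 8 measured members on each array at 8 months, laid out as for 3 months with vessels in the upper and septa in the lower row and mean ± SD as a black bar. Dnajb1 in smoke-exposed knockout vessels lies between 9.12 and 10.08, below all but 1 control array.

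Over the 16 groups the order of levels was set mostly by small steps. Dnajb1 was highest in smoke-exposed wild-type septa at 3 months (12.39) and lowest in smoke-exposed knockout vessels at 8 months (9.58). Hspa1a, Hspa8 and Dnaja1 were also highest in smoke-exposed wild-type septa at 3 months, with means of 10.24, 11.62 and 11.15. Hsph1 and Hsp90aa1 were highest in control knockout vessels at 3 months (10.92 and 9.35). Hspb1 was highest in control wild-type vessels at 8 months (12.4) and Cacybp in smoke-exposed wild-type vessels at 3 months (9.49). Of the 15 steps between neighbouring groups in each gene's order, 1 was larger than the SD within groups for Dnajb1 and 1 for Cacybp, and 0 for the other members. The SD within groups was 1.77 for Hspa1a, 1.11 for Cacybp and 0.28 for Hspa8, so the same step is less certain for the inducible gene. Levels of different genes come from different probes and are not compared.

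Between tissues, a comparison that did not choose the members, 3 members were lower in vessels, 1 was higher and 4 did not pass. These 4 calls of 8 stand beside 28.9% of all genes called by limma, 16.2% lower and 12.7% higher. In the bulk tissue used here, fewer cells of a type and less RNA per cell cannot be told apart.

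Dnaja1 ranged from 8.23 over a median of 9.71 to 11.04 in vessels and from 9.40 over 10.23 to 11.46 in septa. It was lower in vessels in 32 of 35 mice with both tissues, and the difference was -0.71 ± 0.13 (log2, SE, limma adjusted p = 8.05e-06). Dnajb1 ranged from 7.20 over 10.70 to 12.73 in vessels and from 9.79 over 10.92 to 12.80 in septa, and was lower in 27 of 35 mice, by -0.63 ± 0.18 (adjusted p = 0.00448). Both J-domain cochaperones were thus lower in vessels, though the ranges of the tissues overlapped.

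Hspa8 ranged from 10.46 over 11.19 to 11.94 in vessels and from 10.84 over 11.41 to 12.00 in septa. It was lower in vessels in 24 of 35 mice, by -0.21 ± 0.07 (log2, SE, limma adjusted p = 0.0109). Hspb1 went the other way, with 11.06, 12.00 and 13.04 as lowest, median and highest value in vessels and 10.38, 11.55 and 12.68 in septa. It was higher in vessels in 29 of 35 mice, by 0.57 ± 0.11 (adjusted p = 2.67e-05). Hspb1 protects actin filaments and is abundant in muscle, and the 13 smooth muscle markers, all higher in vessels, move with it. Their part in the result was not tested.

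The remaining members did not pass between tissues. Cacybp differed by -0.54 ± 0.26 (limma adjusted p = 0.110), Hsp90aa1 by 0.17 ± 0.11 (0.228), Hspa1a by -0.43 ± 0.38 (0.423) and Hsph1 by 0.14 ± 0.20 (0.650). Cacybp passed, at -0.62 and an adjusted p of 0.048, when the mouse 25 array that read 8.46 was left out, and it had -0.55 and an adjusted p of 0.0808 when both arrays of that mouse were averaged. Hspa1a was lower in vessels in 26 of 35 mice, but its differences within mice spread widely.

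**Figure D4:**
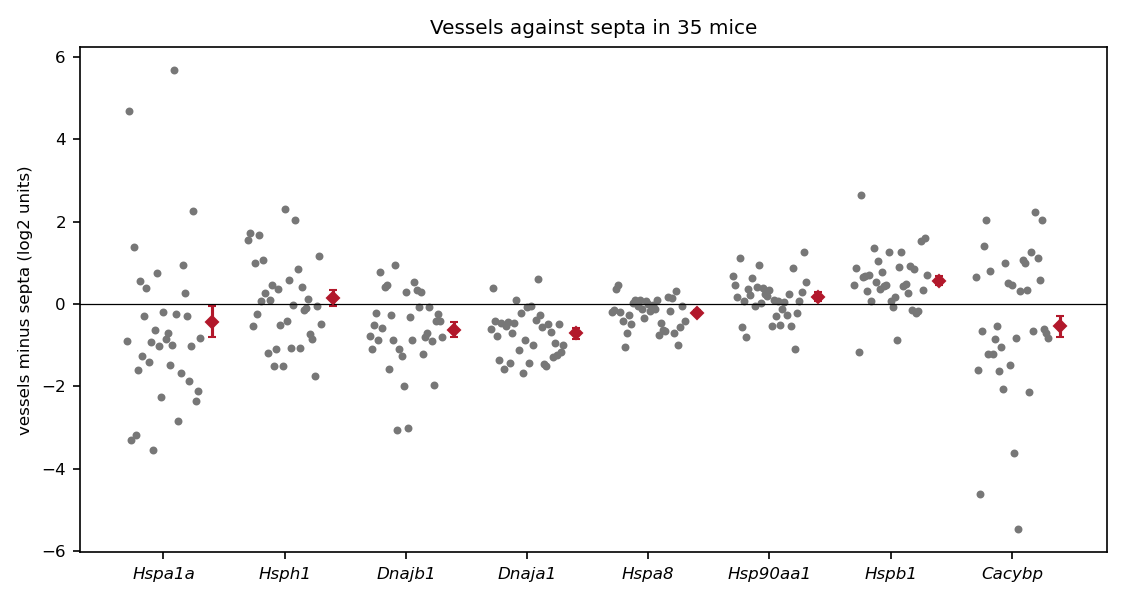
Vessels minus septa (log2 units) of each member in the 35 mice with both tissues (grey points) and the estimate ± SE over all 76 arrays (red diamonds). Nearly all points of Dnaja1 lie below 0 and most of Hspb1 above 0, while those of Hspa1a and Cacybp spread widest.

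Of 67 measured genes of a wider list of chaperones and cochaperones (69 listed, no member among them), 14 were higher and 6 lower in vessels by limma. Of all genes 12.7% were called higher, 16.2% lower and 28.9% in either direction. The list had a median difference of 0.11 against 0.02 for all genes. The 4 furthest from 0 were Hspb7, Hspb6 at 4.33 ± 0.19, Hspa2 at 2.94 ± 0.16 and Dnajb5 at 1.84 ± 0.17 (log2, SE, adjusted p of 3.41e-14 or less). Hspb6 and Hspb7 are small heat shock proteins of muscle. Hspb7 averaged 9.42 in vessels and 3.30 in septa over groups (adjusted p = 1.44e-28), but 28 of 39 septa arrays were at or below the 4.0 that marks the receptor genes. With septa arrays raised to that signal it was at least 34.5-fold higher in vessels. Heart muscle markers, 9 of 10 higher in vessels, ranged from 3.44 to 12.29 in vessels and from 2.45 to 3.93 in septa. Their part in the result was not tested. The lower one furthest from 0, picked after its value was seen, was Bag5, an HSP70 exchange factor, at -0.90 ± 0.26 (adjusted p = 0.00471). Hsf1 itself differed by -0.02 ± 0.15 (adjusted p = 0.932).

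Averaged over exposure and time, no member passed between the genotypes. In septa 0 of 8 passed limma's adjusted p, beside 0% of all genes, and 0 of 8 had an unadjusted p under 0.05, against 825 of all genes (3.98%). In vessels it was also 0 of 8 on both counts, beside 0% of all genes and 1007 unadjusted (4.86%). The largest genotype difference was that of Hspa1a, -0.65 ± 0.51 in vessels and -0.40 ± 0.53 in septa, with knockout and wild-type ranges that overlapped throughout (2.83 to 10.91 and 4.74 to 10.99 in vessels). All 8 differences in septa were below 0, where 49.3% of all genes were. Smoke-exposed wild-type septa at 3 months are part of this average and also of the contrasts that chose the members. The members also varied together within groups, so the 8 signs are not separate, and nothing is read from their count.

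Between 8 and 3 months, averaged over genotype and exposure, 1 member passed, in septa. Dnajb1 in septa ranged from 9.79 over a median of 10.71 to 12.09 at 8 months and from 10.25 over 11.41 to 12.80 at 3 months, and it fell by 0.73 ± 0.17 (log2, SE, limma adjusted p = 0.00621). It was the only 1 of 8 members called in septa, beside 3.5% of all genes (1.27% lower), and the call was lost (adjusted p = 0.167) in 1 fit over both tissues. The group means of Dnajb1 at 3 and 8 months were 11.27 and 11.15 in control and 10.85 and 10.78 in smoke-exposed knockout septa. In wild-type septa they were 11.53 and 10.675 in controls and 12.39 and 10.51 with smoke. Smoke-exposed wild-type septa at 3 months are also part of the contrasts that chose the members. Whether the fall differed between genotypes was not tested. Hspa1a differed by -1.23 ± 0.53 in septa (limma adjusted p = 0.224). Of the neutrophil markers, 4 of 9 measured were higher at 8 months in septa, with a mean log2 signal of 8.16 to 10.78 against 6.95 to 10.51 at 3 months, and 2 of 12 alveolar macrophage markers were. Their part in the result was not tested.

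In vessels 0 of 8 members passed between 8 and 3 months, beside 1.27% of all genes, and 3 of 8 had an unadjusted p under 0.05, beside 13.9% of all genes. These were Hspa1a with -1.54 ± 0.51 (limma adjusted p = 0.123), Hspa8 with -0.33 ± 0.11 (0.138) and Cacybp with 1.23 ± 0.43 (0.155). In the single fit over both tissues Hspa8 and Cacybp passed (adjusted p = 0.0311 and 0.04). Cacybp ranged from 6.76 to 10.36 at 8 months and from 2.69 to 10.85 at 3 months, so the later arrays lay within the range of the earlier ones.

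Of the 67 measured genes of the wider list, 4 rose and 1 fell at 8 months in septa and 3 rose in vessels by limma. Of all genes 2.23% rose and 1.27% fell in septa, and 1.02% rose in vessels. In septa these were Hspa4l, an HSP110 relative (1.52 ± 0.31), Dnajb9 of the endoplasmic reticulum (1.22 ± 0.23), Fkbp5, an HSP90 cochaperone induced by glucocorticoids (0.94 ± 0.23), and Hsp90ab1, the constitutive HSP90 (0.42 ± 0.09), while Hspd1, the mitochondrial HSP60, fell by 0.48 ± 0.13. In vessels Hsf2, a factor related to Hsf1, differed by 1.53 ± 0.39, Hsp90b1 of the endoplasmic reticulum by 0.57 ± 0.14 and Hsp90ab1 by 0.41 ± 0.11. Hsp90ab1 was called in both tissues. Hsf1 differed by -0.19 ± 0.18 in septa and 0.25 ± 0.25 in vessels (adjusted p = 0.674 and 0.717). All called genes of the list are named here, beyond the 4 by size, after their values were seen.

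Within groups the members varied together from mouse to mouse. This was measured on deviations from the group means, which the smoke contrasts do not use, for 28 pairs in each tissue. In septa all 28 pairs had a positive Pearson r, from 0.11 to 0.75 with a median of 0.45, and 18 passed a two-sided permutation test within groups after adjustment over the 56 pairs. In vessels 27 of 28 were positive, from -0.07 to 0.70 with a median of 0.33, and 10 passed. By Spearman's rho 15 and 9 passed. With the mean of all probes of each gene 10 pairs passed in septa, 8 of them among the 18, and 8 in vessels, 7 of them among the 10. Arrays of a group share processing and tissue makeup, and the part of these in the correlations was not tested. The share of pairs of other genes that would pass was not computed, so these counts do not show whether the members stand out.

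The closest pair in septa was Hsp90aa1 with Hspb1 (r = 0.75, rho = 0.75, n = 39, permutation p = 1e-05, the smallest that the permutations can give, adjusted 0.00028), and r was 0.72 without the 2 most extreme arrays. In vessels the same pair had r = 0.18 (rho = 0.19, n = 36, permutation p = 0.275, adjusted 0.32). Hsph1 with Dnaja1 was close in both tissues with the probes used, with r = 0.70 in vessels (rho = 0.66, permutation p = 0.00036, adjusted 0.00252) and r = 0.69 in septa (rho = 0.70, permutation p = 1e-05, adjusted 0.00028). Each of these genes has another probe. Its deviations correlated with those of the probe used at r = 0.31 in vessels and 0.36 in septa for Dnaja1. For Hsph1 these were 0.49 and 0.59. Dnajb1 went with Cacybp in septa (r = 0.74, rho = 0.72, permutation p = 2e-05, adjusted 0.000373) and had r = 0.20 with it in vessels (permutation p = 0.301, adjusted 0.342). Whether a correlation differed between tissues was not tested.

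**Figure D5:**
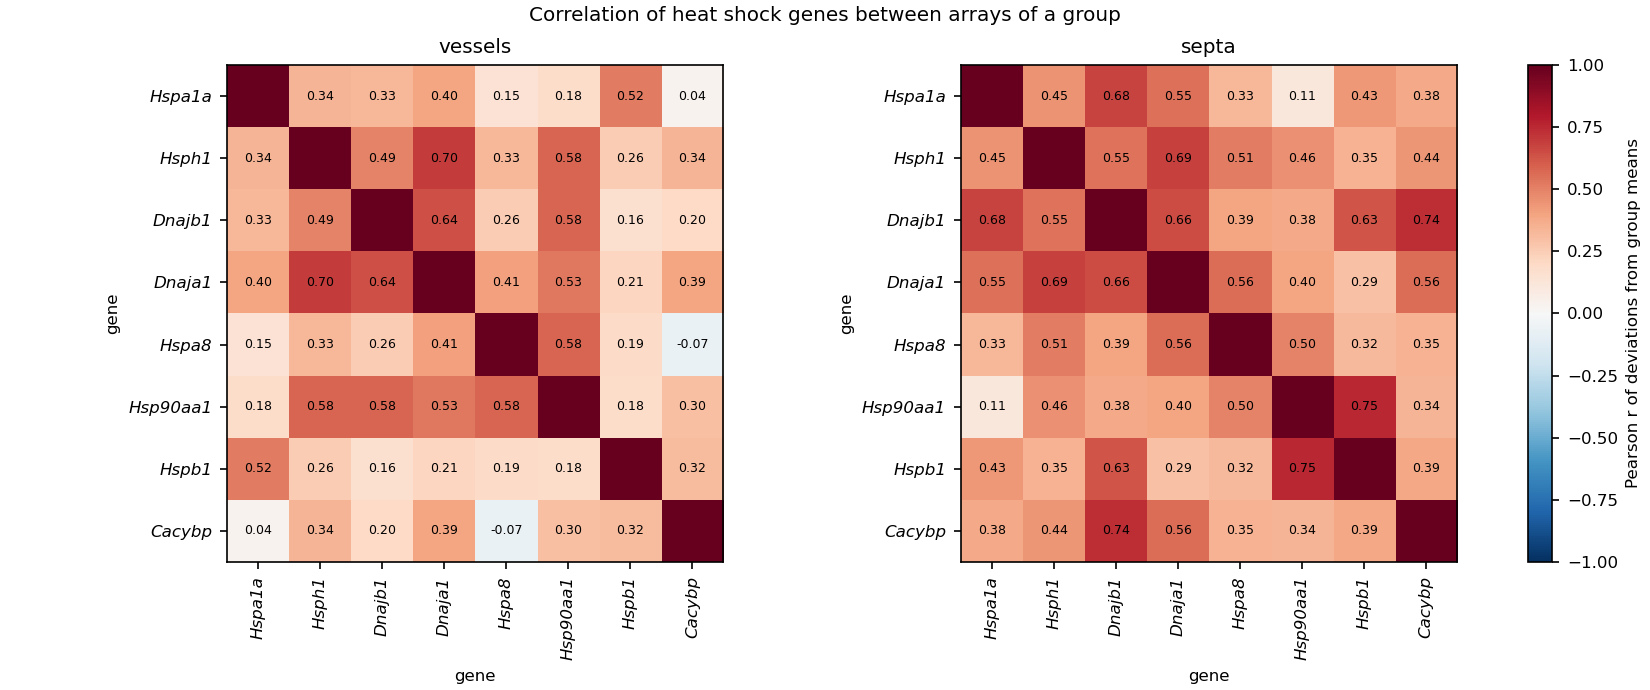
Pearson r of deviations from group means for each pair of members, vessels on the left (n = 36) and septa on the right (n = 39), red for positive and blue for negative values. All pairs in septa are positive, from 0.11 to 0.75, and in vessels all but Hspa8 with Cacybp (-0.07).

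Among the 20709 other genes, each by the probe used, Dnaja1 was the one most correlated with Hsph1 in septa. Hsph1 was the one most correlated with Dnaja1 in both tissues. The gene most like Dnajb1 in septa was Cacybp, and the one most like Hspa1a there was Dnajb1. In vessels the closest other member ranked 1 for Dnaja1, 2 for Hsph1 and 3 for Dnajb1. It ranked 27 for Hsp90aa1, 28 for Hspa8, 45 for Hspa1a, 48 for Hspb1 and 407 for Cacybp. The median rank of the other members ran from 5 for Dnajb1 to 700 for Hsp90aa1 in septa. In vessels it ran from 69 for Hsp90aa1 to 2665 for Hspb1. The genes most like the mean of the 8 members, outside them, were in septa Hspd1 (r = 0.67), Hspa1l (0.63), Hspe1 (0.62), Creb3 (0.61) and Mlkl (0.60). In vessels these were Dnajb4 (0.69), Ccnq (0.63), Bmp3 (0.59), Mdn1 (0.57) and Rsph14 (0.57). Each is the highest of 14500 genes over 39 septa or 36 vessel arrays. Rsph14 averaged 3.33 and Mdn1 4.31 over all arrays, below and near the 4.0 that marks the receptor genes. Hspa1l averaged 4.82 and was at or below 4.0 in the mean of some septa groups. Correlations of genes at such signals are less certain.

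With the probes used, the 2 J-domain genes also moved together between the tissues of 1 mouse. Over 35 mice the deviations in vessels and septa correlated with r = 0.60 for Dnaja1 (rho = 0.56, permutation p = 0.00084, adjusted 0.00644) and 0.50 for Dnajb1 (rho = 0.56, permutation p = 0.00161, adjusted 0.00644). Without the 2 most extreme mice r was 0.58 and 0.48. With the sex pattern as a covariate Dnajb1 did not pass (r = 0.44, rho = 0.44, permutation p = 0.0158, adjusted 0.0631), while Dnaja1 did (r = 0.61, adjusted 0.0076). The other 6 members did not pass, with r from -0.04 for Hspb1 to 0.41 for Hsp90aa1 (adjusted permutation p = 0.866 and 0.0705). With the mean of all probes of each gene Dnaja1 did not pass (r = 0.22, permutation p = 0.309, adjusted 0.412). In that setting Dnajb1 passed (adjusted permutation p = 0.0129), and so did Hspa8 (r = 0.49, adjusted 0.0355). Against the mean of the immediate early genes, which respond fast to handling and injury, 0 of 16 correlations of a member passed, with adjusted permutation p of 0.174 and more and r from -0.16 for Cacybp to 0.37 for Hsp90aa1 in vessels.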

How the data were processed

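Single-colour arrays received Cy5-labelled cDNA made by Ovation PicoSL WTA V2 amplification, per the labels' protocols. The authors' tool was limma, per the submitters' processing notes, while neither a version nor a background correction is stated there. The log2 scale and a normalization between arrays are inferred from the values the authors deposited, which ran from 0.94 to 15.79 with quartiles within 0.0024. The submitters left out 4 arrays.

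The genes described, the wider chaperone list and the marker lists were chosen with earlier results of these data known. Of 62976 features 31465 had a symbol in the platform annotation, 29036 of them were matched by accession to RefSeq, and 671 with an empty cell were left out. For each tissue, 8 group means were estimated in limma 3.58.1 (R 4.3.3) with a trended eBayes and Benjamini and Hochberg adjustment at 0.05 over 20710 genes. The tissue comparison used all 76 arrays with duplicateCorrelation by mouse (consensus correlation 0.0262). Genotype and time were averaged over the other factors with equal weights. Genes of the wider list were named by size, up to 4 past adjustment in a comparison, and Hsf1 always. Correlations used 100000 permutations within groups in Python 3.11.15 with numpy 2.4.6 and scipy 1.17.1. The number of arrays limits the precision, and p-values measure only the spread between these mice. The fits were tested on simulated data. Alternatives were a repeated quantile normalization, a filter on low signals, the mean of all probes, array weights, the sex pattern, mice 7 and 29, mouse 25, a replicate block, 1 fit over both tissues, only the groups compared, other treatments of the mouse, and leaving out each array. Same-mouse residuals of the 2 tissues correlated at a mean of 0.03 over 35 pairs.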

Additional observations from a re-analysis of the deposited data

Results flagged for a closer look

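In 3 of 128 groups of 4 or 5 arrays examined 1 array lay far from the others by Dixon's test, and chance flags about 1 in 20 such groups. Hsph1 in smoke-exposed wild-type vessels at 8 months was 7.78 in replicate 4, the nearest other array being at 9.54. Dnaja1 in smoke-exposed knockout septa at 3 months was 11.0 in replicate 2 and 9.86 in the next array. Hsp90aa1 in control knockout vessels at 8 months was 9.91 in replicate 2 and 8.83 in the next.

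In vessels at 3 months every smoke-exposed knockout array was below, and every smoke-exposed wild-type array above, the mean of its controls for 3 genes, out of 32 cases examined. The smoke effect in knockout minus that in wild-type mice was -5.87 for Hspa1a, -3.33 for Hsph1 and -1.06 for Hspb1 on the log2 scale. These are values of the contrast that chose the genes, and the difference was not tested as independent evidence.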

How the results depend on the processing

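Of 1328 values of members under alternatives other than leaving out 1 array, 1 lost its call (Dnajb1 over time in septa), 2 gained one (Hspa8 and Cacybp over time in vessels) and 1 uncalled value moved by over the SD within groups (Hspa8 in knockout septa at 8 months). Of 5472 values with 1 array left out 1 gained a call, Cacybp between tissues. Smoke values are not counted by their calls. In 1 fit over 76 arrays with a mouse block, 0 members passed over time in septa (1 in separate fits), 2 over time in vessels (0 in separate fits) and 1, Cacybp, for smoke in wild-type vessels at 3 months (0). With the mean of all probes 18 correlated pairs passed in place of 28, and Hspa8 in knockout septa at 8 months was 0.26 in place of -0.10. With the sex pattern as a covariate 1 gene, Dnaja1, correlated between tissues in place of 2. With the mean of all probes Dnajb1 and Hspa8 did, in place of Dnajb1 and Dnaja1. Genes called over all in that single fit were 225 in place of 725 over time in septa, 1111 in place of 262 over time in vessels, 23 for smoke in knockout and 34 in wild-type vessels at 3 months and 13 for their difference (0 each), 2 in knockout vessels at 8 months and 1 for genotype in vessels (0 each), and 0 in place of 1 for smoke in wild-type septa at 3 months, which was also 0 with only the groups compared. Over time in vessels 167 were called with the sex pattern and 148 without mice 7 and 29. The causes were not tested. With 1 array left out, 1 member was called over time in septa, 0 over time in vessels, 0 for genotype and smoke, and 4 to 5 between tissues. The genes called over all were then 0 in place of 1 for wild-type septa at 3 months (control replicates 3, 4), 3 for knockout septa at 8 months (control replicate 1), 1 for genotype in vessels (knockout control, 3 months replicate 4 or 8 months replicate 1), 1 for knockout vessels at 3 months (control replicate 2 or 3) and 2 or 1 for the difference of smoke effects there (smoke replicate 3 or 5), in place of 0.

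With replicate number as a block no count of members changed, at 4 between tissues and 1 over time in septa, and 1 gene was called for smoke in knockout vessels at 8 months in place of 0. Residuals of same-numbered arrays correlated at a mean of 0.02 in vessels and 0.01 in septa. Since the 2 tissues of the same mouse correlated at a mean of only 0.03, such low values cannot show whether same-numbered arrays share processing. Keeping both mouse 25 arrays was not run for the correlation between tissues, since that mouse has no septa array here. Signals near those of the receptor genes, such as the lowest of Hspa1a and Cacybp, have no reliable order.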
